A study of Homo sapiens with 36 samples.

Results

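DU145 prostate cancer (PCa) cells grown with MG63 osteoblast (OB)-like cells were compared with DU145 cells grown alone. The sample labels placed 2 co-cultures and 3 mono-cultures in this comparison, which are 5 of the 36 RNA-seq libraries of the series. DU145 is a human PCa line that the labels class as osteolytic. MG63 is a human osteosarcoma line that stands here for OBs. The co-cultures were held for 5 days in a horizontal NICO-1 chamber, where a filter separates both cell types, so that medium is shared and cells are not. Both groups were kept in αMEM with serum, neither received RANKL, and RNA of the DU145 side was sequenced as poly-A mRNA with strand-specific libraries. A further 2 libraries of DU145 cells alone with 50 ng/mL RANKL, a cytokine that drives osteoclast formation, served only as a check of direction. The comparison rests on 1 tumor line and 1 osteosarcoma line. The labels number the replicates without stating whether each was a separate culture, so p-values measure the spread between these libraries, which may be technical.

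NF-kB is a family of transcription factors kept in the cytoplasm by IκB proteins such as NFKBIA. Cytokines of the interleukin-1 and tumor necrosis factor families lead to breakdown of IκB, and NF-kB then enters the nucleus and drives chemokine and cytokine genes together with genes that switch it off again. C/EBP factors act beside it at acute-phase genes such as SAA1 and SAA2, which the liver and inflamed epithelia use in the early response to injury. In bone metastasis, tumor-derived chemokines and colony-stimulating factors are known to act on cells of the osteoclast lineage. Cholesterol synthesis is under a separate control, in which SREBP factors leave the endoplasmic reticulum when sterols are low and INSIG1 holds them back when sterols are plentiful.

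The genes that rose in the co-cultures included cytokine genes known as NF-kB targets, so the 250 bases before their starts are shown with a κB-like motif in capitals. The motif searched was GGANNNTCC, which reads the same on both strands, and no other motif was searched. Sequences came from RefSeq (GRCh38.p14), and all 4 genes lie on the plus strand. CSF2 was read at chr5:132073539-132073788, CXCL1 at chr4:73869143-73869392, CXCL8 at chr4:73740319-73740568 and IL6 at chr7:22726950-22727199.
CSF2: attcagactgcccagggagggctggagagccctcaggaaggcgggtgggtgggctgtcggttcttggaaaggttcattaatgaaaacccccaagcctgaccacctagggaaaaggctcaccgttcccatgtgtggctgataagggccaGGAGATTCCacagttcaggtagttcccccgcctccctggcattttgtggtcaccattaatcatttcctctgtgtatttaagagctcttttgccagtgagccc
CXCL1: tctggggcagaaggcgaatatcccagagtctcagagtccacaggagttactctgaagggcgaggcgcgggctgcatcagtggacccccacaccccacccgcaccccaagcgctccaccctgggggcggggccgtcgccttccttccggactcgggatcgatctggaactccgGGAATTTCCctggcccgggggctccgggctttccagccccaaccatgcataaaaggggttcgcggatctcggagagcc
CXCL8: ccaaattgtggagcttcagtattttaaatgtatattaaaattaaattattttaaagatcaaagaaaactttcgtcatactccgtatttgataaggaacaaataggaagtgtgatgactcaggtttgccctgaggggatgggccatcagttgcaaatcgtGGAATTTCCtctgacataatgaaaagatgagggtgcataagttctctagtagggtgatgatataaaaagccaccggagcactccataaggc
IL6: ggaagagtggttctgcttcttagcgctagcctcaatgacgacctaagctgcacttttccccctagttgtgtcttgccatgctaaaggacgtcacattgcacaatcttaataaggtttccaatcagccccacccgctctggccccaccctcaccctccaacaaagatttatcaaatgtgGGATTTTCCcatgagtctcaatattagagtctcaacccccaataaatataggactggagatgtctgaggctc
The motif began 102 bases before the start of CSF2 (GGAGATTCC), 78 bases before CXCL1 (GGAATTTCC), 91 bases before CXCL8 (GGAATTTCC) and 72 bases before IL6 (GGATTTTCC). Of the 8 genes called higher, 5 had a promoter in the RefSeq table and these 4 held the motif, whereas the ZC3H12A promoter held no match in this window. Over all 35116 promoters of the same length, 2739 (7.80%) held it. The 4 genes were known NF-kB targets before the motif was chosen. Their matches beside this share are therefore a description and no finding of these data. Of the 5 genes singled out in earlier work, CCL20, LCN2 and 1 of 2 IL32 promoters held the motif, and SERPINA3 and the other IL32 promoter did not. PI3 had no promoter in the RefSeq table and was not examined. LCN2 is shown as an example, with the match 175 bases before its start, within chr9:128149203-128149452 on the plus strand.
LCN2: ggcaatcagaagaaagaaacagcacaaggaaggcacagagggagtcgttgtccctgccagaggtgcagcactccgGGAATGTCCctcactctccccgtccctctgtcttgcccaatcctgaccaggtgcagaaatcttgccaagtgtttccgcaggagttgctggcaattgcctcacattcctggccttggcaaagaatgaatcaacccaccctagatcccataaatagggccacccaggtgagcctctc
A match is a string of letters and is no measure of binding.

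Library totals were 29847346 to 34149876 counts in the mono-cultures, and 12873435 and 10418452 in co-cultures 1 and 2, so that the median depth of the mono-cultures was 2.69 times that of the co-cultures. Levels are given as counts per 1e6 of the library total (CPM), which are not corrected for gene length. The 3 counts taken as the detection limit equal 0.0878 to 0.101 CPM in the mono-cultures and 0.233 and 0.288 CPM in the co-cultures. Co-culture 2 stood apart from every other library. Its mitochondrially encoded genes held 3.24% of the counts, against 15.02% in co-culture 1, 13.9% to 14.6% in the mono-cultures and 8.87% to 15.4% over the 35 other libraries of the series. For this reason the levels of each co-culture are given singly, apart from averages in the comparison between lines. The DU145 label was checked against markers. Of 10 epithelial markers the summed level was 3302 to 3393 CPM in the mono-cultures and 2513 and 4369 CPM in co-cultures 1 and 2, while 18 markers of MG63-like mesenchymal cells summed to 19.5 to 20.5 CPM alone and to 23.96 and 32.7 CPM in the co-cultures. Among these 18, 12 were under 1 CPM in all 5 libraries, and POSTN and THY1 were at 0 in all 5. Markers of macrophages summed to 70.4 to 85.6 CPM alone and to 92.2 and 58.2 CPM in the co-cultures. The part of the marker levels in the results was not tested.

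Cytokine, chemokine and acute-phase genes were among the few that rose in DU145 cells with MG63 cells. Of 11868 genes tested with edgeR's quasi-likelihood test (Benjamini-Hochberg adjusted p under 0.05), 8 rose in the co-cultures (0.0674%) and 0 fell (0.00%). The 8 were CSF2, CXCL1, SAA1, SAA2, CXCL8, IL6, ZC3H12A and CEBPD, with log2 fold changes from 4.73 to 1.28. At an unadjusted p under 0.05 there were 1560 genes higher (13.1%) and 1008 lower (8.49%), and DESeq2 called 476 higher (4.01%) and 294 lower (2.48%). With a fold of over 2 and an unadjusted p under 0.05, 285 were higher (2.40%) and 105 lower (0.885%). In a fit of the 20 libraries without RANKL, 2040 of 13437 genes were higher (15.2%) and 2052 lower (15.3%), the 8 among them. Because RNA was taken from whole cultures, more responding cells and more RNA per responding cell cannot be told apart.

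**Figure D1:**
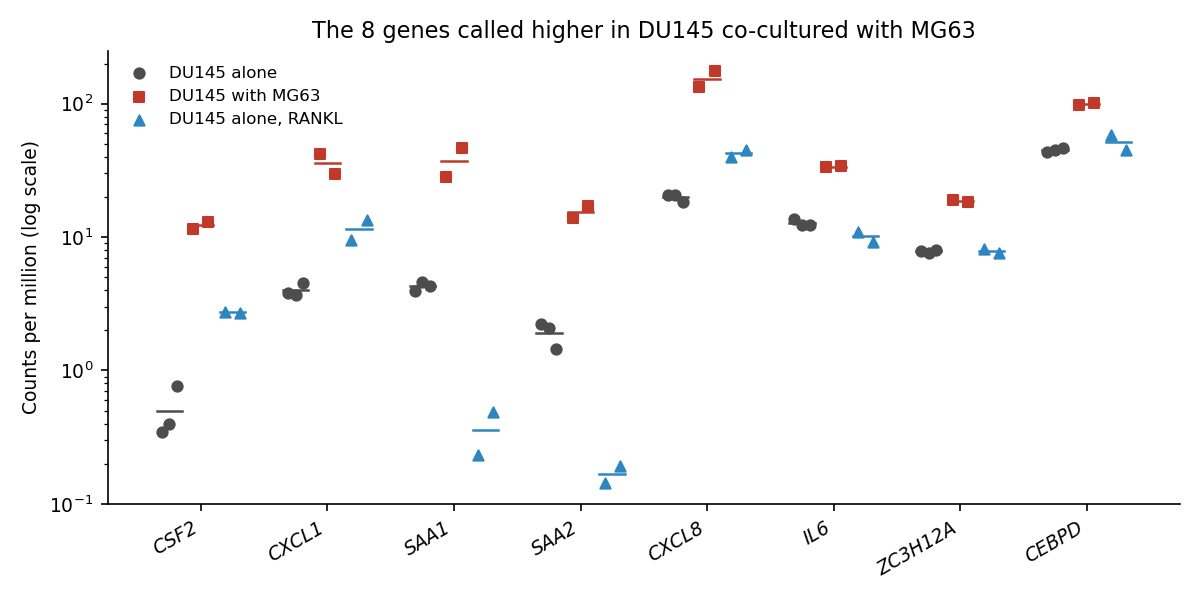
CPM on a log axis for the 8 genes called higher, with 1 point per library and a bar at the group mean, for DU145 alone (3), with MG63 cells (2) and alone with RANKL (2). Both co-cultures lay above all 3 mono-cultures for each gene, and SAA1 and SAA2 were lowest in the RANKL libraries.

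Secreted cytokines and chemokines made up 4 of the 8. CSF2, which encodes the growth factor GM-CSF for granulocytes and macrophages, was at 0.343, 0.395 and 0.758 CPM in the mono-cultures and at 11.5 and 13.0 CPM in the co-cultures. The gene was thus near the detection limit alone and clearly read in both co-cultures. Its log2 fold change was 4.73 ± 0.33 (SE, n = 2 and 3, edgeR adjusted p = 0.042). Testing needed 100 counts in at least 1 library. CSF2 reached this in the co-cultures only, so it entered the test through the group where it was high. CXCL8, the neutrophil chemokine interleukin-8, went from 20.8, 20.9 and 18.3 CPM to 133 and 175 CPM. Its change was 3.08 ± 0.17 on the log2 scale (edgeR adjusted p = 0.026), and the lowest co-culture exceeded the highest mono-culture several times over. CXCL1, a chemokine that acts on the same receptor, CXCR2, was at 3.80, 3.71 and 4.50 CPM alone and at 42.26 and 29.5 CPM with MG63 cells. Here co-culture 1 was the higher of the pair, and the log2 fold change was 3.30 ± 0.18 (edgeR adjusted p = 0.026). IL6, a cytokine of the acute-phase response and of osteoclast formation, was at 13.6, 12.4 and 12.2 CPM alone and at 33.5 and 34.0 CPM in co-culture. Both co-cultures were close to each other, and the change was 1.54 ± 0.11 (edgeR adjusted p = 0.042).

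The acute-phase pair rose in parallel. SAA1, serum amyloid A, stood at 3.97, 4.63 and 4.33 CPM in the mono-cultures and at 28.1 and 46.6 CPM in the co-cultures, a log2 fold change of 3.26 ± 0.25 (edgeR adjusted p = 0.042). SAA2 stood at 2.23, 2.10 and 1.45 CPM and at 13.8 and 17.0 CPM, a log2 fold change of 3.13 ± 0.25 (edgeR adjusted p = 0.042). Like CSF2, SAA2 reached the 100 counts needed for testing in the co-cultures only. Neither gene overlapped between groups. The transcripts of SAA1 and SAA2 are near-identical, so reads can be shared between them and the split between both genes is uncertain.

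A pair of regulators completed the called genes. ZC3H12A, an RNase (Regnase-1) that degrades IL6 and other inflammatory mRNAs, was at 7.88, 7.60 and 8.03 CPM alone and at 19.0 and 18.5 CPM in co-culture. CEBPD, a C/EBP transcription factor of the acute-phase response, was at 43.7, 45.01 and 46.6 CPM alone and at 97.6 and 101 CPM in co-culture. These rises were the smallest of the 8, at 1.39 ± 0.11 and 1.28 ± 0.096 on the log2 scale (edgeR adjusted p = 0.042 for both).

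Whether the calls stood depended on the library left out. The 8 genes were chosen with both co-cultures in the fit, so leaving out 1 of these is no independent check. Without co-culture 2, all 8 genes were called with edgeR adjusted p between 3.2e-05 and 0.0015, and the whole table gave 867 genes higher (7.31%) and 830 lower (7.0%). Without co-culture 1, all 8 were called again, among 3536 higher (29.8%) and 3392 lower (28.6%). In both of these fits the lone co-culture is assumed to vary as the mono-cultures do. Leaving out mono-culture 1, 2 or 3 in turn gave 0 genes higher and 0 lower by the same edgeR test, with 475 to 591 higher and 467 to 504 lower at an unadjusted p under 0.05. DESeq2 was not run on these 4 libraries. The log2 fold changes of the 8 genes then ran from 1.27 to 5.13, and their edgeR adjusted p from 0.21 to 0.53. With library totals in place of TMM, ZC3H12A and CEBPD missed the threshold (log2 fold changes of 1.26 and 1.14, edgeR adjusted p = 0.059 for both), and with the mono-cultures thinned to the depth of the co-cultures IL6 and ZC3H12A did (1.51 and 1.33, edgeR adjusted p = 0.065 and 0.073). GC content of the transcripts of the 8 genes ranged from 34.1% for CXCL8 to 70.0% for CEBPD.

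**Figure D2:**
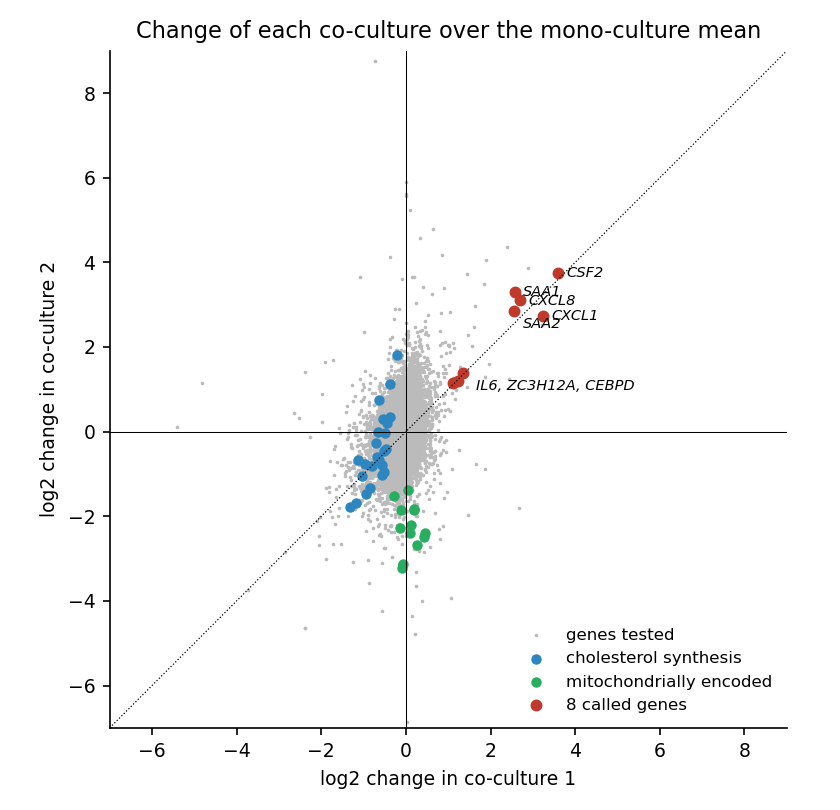
The log2 change of each gene tested in co-culture 1 (x axis) and co-culture 2 (y axis) over the mean of the 3 mono-cultures, in CPM plus 0.5. The 8 called genes lie near the dotted line of equal change, the 13 mitochondrially encoded genes lie near 0 on the x axis and far below 0 on the y axis, and 24 cholesterol synthesis genes lie mostly to the lower left.

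Of the 30 genes next in order of p, 19 had higher and 11 had lower values in the co-cultures, and none of these 30 passed the edgeR threshold. IER3, an early response gene under NF-kB, read 147, 148 and 146 CPM alone and 318 and 357 CPM in co-culture, with a log2 difference of 1.34 ± 0.11 (edgeR adjusted p = 0.051). NFKBIA, the inhibitor that ends NF-kB activity, read 340.05, 325 and 355 CPM alone and 733 and 704 CPM in co-culture, a difference of 1.22 ± 0.11 (edgeR adjusted p = 0.051). Its groups did not overlap. SOD2, the mitochondrial superoxide dismutase, read 104, 101 and 118 CPM against 244 and 212 CPM (edgeR adjusted p = 0.058). C3, the central complement protein, read 4.34, 5.30 and 4.92 CPM against 15.9 and 29.3 CPM (edgeR adjusted p = 0.10). PFKFB3, which raises glycolytic flux, read 71.7, 72.4 and 72.9 CPM against 120.1 and 129 CPM (edgeR adjusted p = 0.077). These genes were chosen after their values were seen, and each was called by DESeq2. On the lower side, IL3RA, a subunit of the interleukin-3 receptor, read 5.59, 4.75 and 5.32 CPM alone and 1.14 and 1.06 CPM in co-culture (edgeR adjusted p = 0.077).

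The next 5 genes had been singled out in earlier work on these data, and their values are a description. LCN2, the iron-binding lipocalin 2, was at 0.426, 0.743 and 0.658 CPM alone and at 9.75 and 5.84 CPM with MG63 cells. Its log2 difference of 3.80 ± 0.33 missed the threshold (edgeR adjusted p = 0.051). LCN2 reached the 100 counts needed for testing in co-culture 1 only. PI3, the antiprotease elafin, was at 0.279, 0.536 and 0.206 CPM alone and at 7.67 and 9.36 CPM in co-culture. It did not reach 100 counts in any of the 5 libraries and was not tested, and the log2 ratio of its mean CPM was 4.65. CCL20, a chemokine for dendritic cells and lymphocytes, was at 2.18, 3.92 and 2.66 CPM alone and at 12.8 and 9.77 CPM in co-culture (log2 difference 2.10, edgeR adjusted p = 0.13). For these 3 genes the groups did not overlap. IL32, a cytokine induced by inflammation, was at 74.1, 77.9 and 71.0 CPM alone, at 86.1 CPM in co-culture 1 and at 237 CPM in co-culture 2. Its log2 difference of 1.27 (edgeR adjusted p = 0.20) fell to 0.30 without co-culture 2 (edgeR adjusted p = 0.039). SERPINA3, a serine protease inhibitor, stayed at or under 0.331 CPM in all 5 libraries.

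Gene lists were then read as groups, each by its members called, its median, and the members for which both co-cultures lay beyond all 3 mono-cultures. Over all genes tested, 1542 (13.0%) lay above in both co-cultures and 4292 (36.2%) lay below. On TMM effective sizes 2752 (23.2%) lay above and 2536 (21.4%) below, so the excess of lower genes rests on the scaling. In CPM the median single-library change was -0.10 in co-culture 1 and -0.19 in co-culture 2. The edgeR changes use TMM, and on library totals their median was shifted by -0.138.

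**Figure D3:**
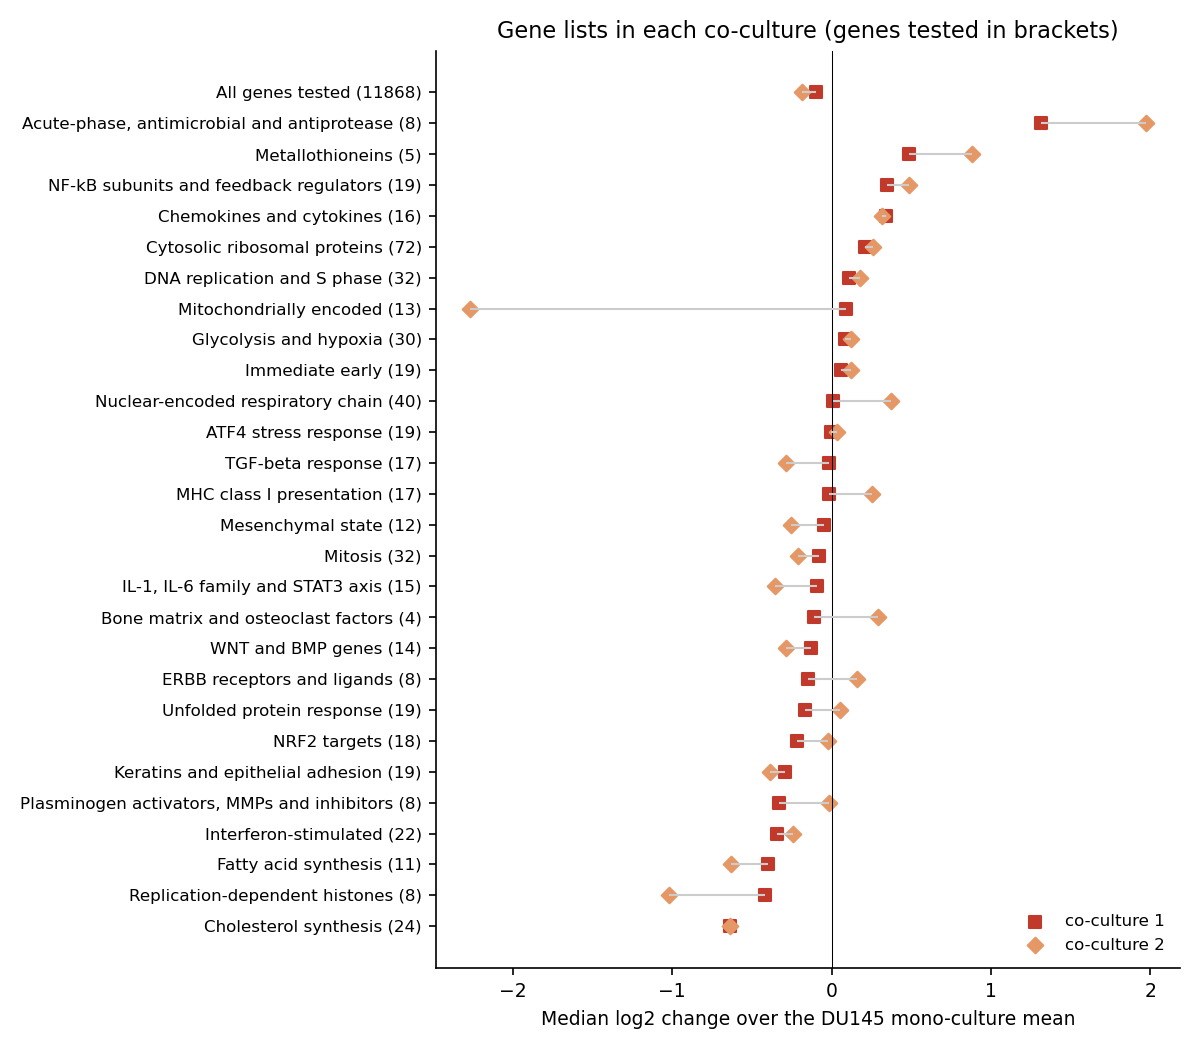
Median log2 change of each gene list in co-culture 1 (squares) and co-culture 2 (diamonds) over the mean of the DU145 mono-cultures, with the number of genes tested in brackets. Acute-phase genes lie farthest to the right in both co-cultures, cholesterol synthesis genes lie near -0.6 in both, and the mitochondrially encoded genes are split between 0.09 and -2.27.

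Among chemokines and cytokines, 4 of 16 tested genes rose (CSF2, CXCL1, CXCL8 and IL6) and 0 fell, beside 0.0674% and 0.00% of all genes. In both co-cultures 8 lay above all mono-cultures (13.0% of all genes) and 3 below (36.2%). On TMM sizes 10 lay above (23.2%) and 1 below (21.4%). With DESeq2, 8 were called higher (4.01% of all genes) and 0 lower (2.48%). CXCL2, a close relative of CXCL1, read 19.8, 24.3 and 23.9 CPM alone and 83.4 and 56.1 CPM in co-culture (edgeR adjusted p = 0.077). CXCL3 was under the count minimum and read 1.80, 2.25 and 1.85 CPM alone and 7.21 and 5.35 CPM in co-culture. Transcripts of CXCL1, CXCL2 and CXCL3 are alike in sequence, and reads may be split between them. CXCL5 read 8.42, 8.83 and 8.21 CPM against 13.2 and 11.97 CPM (edgeR adjusted p = 0.14). Other members did not share this pattern. CCL5 read 3.44, 2.43 and 2.76 CPM alone and 1.35 and 1.12 CPM in co-culture (edgeR adjusted p = 0.18). CSF1, the macrophage growth factor needed for osteoclast formation, read 152, 148 and 161 CPM alone and 183 and 160.5 CPM in co-culture, so that its groups overlapped.

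Of the 19 NF-kB subunits and feedback regulators, 0 passed the edgeR threshold. At an unadjusted p under 0.05, 13 had higher and 0 lower values, beside 13.1% and 8.49% of all genes. DESeq2 called 11 higher, beside 4.01%. In 12 of the 19 both co-cultures lay above all mono-cultures, beside 13.0% of all genes, and on TMM sizes in 16, beside 23.2%. The list median was 0.35 in co-culture 1 and 0.49 in co-culture 2. The members were unequal. TNIP1, which dampens NF-kB signalling, read 134, 141 and 143 CPM against 225 and 251 CPM, and TNFAIP3 (A20), a deubiquitinase with the same role, read 9.19, 11.3 and 7.60 CPM against 21.6 and 16.4 CPM. ICAM1, the adhesion molecule for leukocytes, read 87.7, 88.4 and 96.4 CPM against 161 and 129.9 CPM. The subunit gene RELA read 82.0, 81.3 and 86.6 CPM against 83.0 and 82.9 CPM, with no visible shift, while RELB read 3.85, 1.63 and 7.31 CPM against 13.6 and 18.9 CPM with a wide spread among the mono-cultures. TNFAIP2 overlapped between groups, at 129, 149 and 125 CPM against 139 and 139.6 CPM. The fitted list median was 0.82, and it was 0.45 without co-culture 2 and 0.68 without co-culture 1.

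The acute-phase, antimicrobial and antiprotease list had 8 members past the count minimum. SAA1 and SAA2 rose and 0 fell, beside 0.0674% and 0.00% of all genes. In 6 of the 8 both co-cultures lay above all mono-cultures, beside 13.0% of all genes, and on TMM sizes in 7, beside 23.2%. S100A9, a calcium-binding antimicrobial protein, read 16.2, 15.5 and 17.3 CPM alone and 33.3 and 23.95 CPM in co-culture (edgeR adjusted p = 0.14). SLPI, an antiprotease of mucosal surfaces, read 29.4, 26.7 and 34.5 CPM alone but 37.3 and 84.5 CPM in co-culture, most of it from co-culture 2. Receptor and signalling genes of the interleukin-1, interleukin-6 and STAT3 axis did not follow. By edgeR 0 of 15 were called. At an unadjusted p under 0.05, 0 were higher and 2 lower, beside 13.1% and 8.49% of all genes. DESeq2 called 0 higher and 1 lower, beside 4.01% and 2.48%. SOCS3, the feedback inhibitor induced by STAT3, read 14.7, 14.8 and 14.3 CPM against 11.9 and 14.0 CPM, and SOCS2 read 37.7, 39.2 and 35.8 CPM against 24.3 and 22.0 CPM (edgeR adjusted p = 0.16).

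Most cholesterol synthesis genes had lower values in both co-cultures. Of 24 genes tested, 0 were called by edgeR. At an unadjusted p under 0.05, 15 had lower and 0 higher values, beside 8.49% and 13.1% of all genes. DESeq2 called 12 lower and 0 higher, beside 2.48% and 4.01%. In 16 of the 24 both co-cultures lay below all mono-cultures, beside 36.2% of all genes, and on TMM sizes also in 16, beside 21.4%. The list median was -0.64 in co-culture 1 and -0.63 in co-culture 2. INSIG1, which retains SREBP in the endoplasmic reticulum, read 41.7, 47.0 and 46.3 CPM alone and 17.6 and 12.7 CPM in co-culture (log2 difference -1.43 ± 0.16, edgeR adjusted p = 0.077). IDI1, the isomerase of isoprenoid units, read 170.0, 174 and 181 CPM against 85.4 and 83.7 CPM (log2 difference -0.91 ± 0.099, edgeR adjusted p = 0.077). For both genes the groups did not overlap. HMGCS1, an early enzyme of the mevalonate pathway, read 157, 174 and 173 CPM against 73.9 and 52.0 CPM (edgeR adjusted p = 0.12). DHCR7, which makes cholesterol in the last step, read 230.5, 217 and 242 CPM against 119 and 82.5 CPM (edgeR adjusted p = 0.14). FDFT1, squalene synthase, read 358, 366 and 366 CPM against 232 and 227 CPM (edgeR adjusted p = 0.16). Exceptions came from co-culture 2. PMVK read 64.5, 61.1 and 69.3 CPM alone, 56.0 CPM in co-culture 1 and 231 CPM in co-culture 2, and FDPS read 513, 522 and 528 CPM alone, 382 CPM in co-culture 1 and 603 CPM in co-culture 2. The fitted list median was -0.53, and it was -0.55 without co-culture 2 and -0.50 without co-culture 1.

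Fatty acid synthesis genes, which share SREBP control, had a similar pattern. By edgeR 0 of 11 were called. At an unadjusted p under 0.05, 5 were lower and 0 higher, beside 8.49% and 13.1% of all genes, and DESeq2 called 3 lower, beside 2.48%. In 9 of the 11 both co-cultures lay below all mono-cultures, beside 36.2% of all genes, and on TMM sizes in 7, beside 21.4%. SCD, the desaturase that makes oleate, read 380, 421 and 429 CPM against 224 and 130.2 CPM (edgeR adjusted p = 0.17), ACLY read 197, 194 and 213 CPM against 134 and 108 CPM, and FADS2 read 315, 342 and 368 CPM against 245 and 220.2 CPM. FASN, the synthase itself, overlapped between groups at 117, 109.9 and 113 CPM against 93.3 and 115 CPM.

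Interferon-stimulated genes were not higher beside the inflammatory ones. Of 22 tested, 0 were called by edgeR. At an unadjusted p under 0.05, 3 were higher and 6 lower, beside 13.1% and 8.49% of all genes. DESeq2 called 1 higher and 5 lower, beside 4.01% and 2.48%. In 10 of the 22 both co-cultures lay below all mono-cultures, near the 36.2% of all genes, and on TMM sizes in 7, beside 21.4%. The list median was -0.14, and 0.08 against RANKL. OASL, an antiviral protein, read 50.8, 45.7 and 54.8 CPM against 16.5 and 20.2 CPM (edgeR adjusted p = 0.094). IFIT3 read 36.3, 36.4 and 42.21 CPM against 17.2 and 20.3 CPM, and IFITM3 read 115, 110.6 and 116 CPM against 74.4 and 48.6 CPM. The OASL values were no lower than in the mono-cultures with RANKL, which read 20.3 and 15.8 CPM.

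Metallothioneins, which bind zinc and copper, had 5 tested members and 0 called by edgeR. At an unadjusted p under 0.05, 4 were higher, beside 13.1% of all genes, and DESeq2 called 4 higher, beside 4.01%. In 4 both co-cultures lay above all mono-cultures, beside 13.0%, and on TMM sizes also in 4, beside 23.2%. MT2A read 818, 842 and 778 CPM against 1481 and 2113 CPM, but the mono-cultures with RANKL read 1656 and 1821 CPM. Of 8 histone genes tested, 0 were called by edgeR. At an unadjusted p under 0.05, 4 were lower, beside 8.49% of all genes, and DESeq2 called 3 lower, beside 2.48%. In all 8 both co-cultures lay below the mono-cultures, beside 36.2% of all genes, and on TMM sizes in 7, beside 21.4%. The list median was -0.63 against the plain mono-cultures but -0.0049 against RANKL, and the RANKL mono-cultures themselves stood at -0.61. H2AC6 read 66.9, 67.3 and 69.5 CPM against 40.7 and 39.3 CPM, and H1-2 read 357, 343 and 376 CPM against 320.4 and 287 CPM. Replication-dependent histone mRNAs mostly lack poly-A tails, so poly-A libraries read them in part. Genes of DNA replication had small differences. By edgeR 0 of 32 were called, 15 were higher at an unadjusted p under 0.05 (13.1% of all genes), DESeq2 called 5 higher (4.01% of all genes), and the list median was 0.11 and 0.18 in the single co-cultures. The fitted median was 0.34 against the plain and 0.11 against the RANKL mono-cultures, where 0 were called higher and 1 lower. The 32 mitosis genes had 0 calls by edgeR and by DESeq2, 1 higher and 0 lower at an unadjusted p under 0.05, and medians of -0.08 and -0.21.

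Among keratins and epithelial adhesion genes, edgeR called 0 of 19, with 0 higher and 5 lower at an unadjusted p under 0.05 (8.49% of all genes), and DESeq2 called 1 lower (2.48% of all genes). By sign 9 of the 19 were positive and 10 negative, with a median of -0.09. The next 3 genes were chosen after their values were seen. KRT81, a hair keratin that DU145 also makes, read 13.3, 16.3 and 13.8 CPM alone and 3.75 and 5.49 CPM in co-culture (edgeR adjusted p = 0.14). CDH1, the E-cadherin of epithelial junctions, read 10.0, 13.6 and 12.3 CPM against 6.04 and 6.99 CPM, and CLDN4 read 7.84, 8.01 and 8.01 CPM against 3.38 and 5.24 CPM. The abundant keratins were split by library. KRT8 read 639, 615 and 620.1 CPM alone, 456 CPM in co-culture 1 and 799.7 CPM in co-culture 2. Of 18 bone matrix and osteoclast genes, 4 were past the count minimum, CSF1 among them. By edgeR and by DESeq2 0 of the 4 were called, and 1 was higher and 0 lower at an unadjusted p under 0.05. TNFSF11, which encodes RANKL itself, was at or under 0.227 CPM in all 5 libraries, and its receptor TNFRSF11A read 3.02, 2.35 and 2.68 CPM against 2.45 and 3.24 CPM. By edgeR 0 of 12 mesenchymal genes and 0 of 17 genes of the TGF-beta response were called. DESeq2 called 0 mesenchymal genes and 1 higher and 0 lower in the TGF-beta list. At an unadjusted p under 0.05 the counts were 3 higher and 1 lower, and 1 higher and 1 lower. Over all genes, DESeq2 called 4.01% higher and 2.48% lower, and 13.1% and 8.49% passed an unadjusted p under 0.05.

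The 2 co-cultures differed from each other more than any other replicate pair of the series. The SD of the log2 difference between them over genes was 0.673, against 0.183 to 0.303 in 23 other replicate pairs and 0.254 to 0.274 in the MG63 co-cultures of the other 3 lines. Taken singly, co-culture 1 had 46 genes over 2-fold higher (0.388%) and 154 over 2-fold lower (1.3%), while co-culture 2 had 622 (5.24%) and 831 (7.0%). Only 34 genes were over 2-fold higher and 58 over 2-fold lower in both, and 12 went opposite ways. Across genes, which are not independent replicates, the changes in both co-cultures correlated with Pearson's r = 0.344 and Spearman's rho = 0.342, and both share the same mono-culture mean.

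The gap moved with the composition of the transcripts. The change in co-culture 2 correlated with GC content across genes at rho = 0.459 and with transcript length at rho = -0.262, while the values for co-culture 1 were 0.116 and 0.0147. From the quintile of genes with the lowest GC content to that with the highest, the median change in co-culture 2 went from -0.488 to 0.335, and in co-culture 1 from -0.128 to -0.039. From the quintile of the shortest to that of the longest transcripts it went from 0.038 to -0.443 in co-culture 2 and stayed between -0.110 and -0.078 in co-culture 1. The gap between both co-cultures correlated at 0.451 with GC content and at -0.302 with length, and in the 23 other replicate pairs these values lay between -0.189 and 0.220 and between -0.223 and 0.234, so that the relation to length stood out less than that to GC content. The part of composition and length in the results was not tested.

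**Figure D4:**
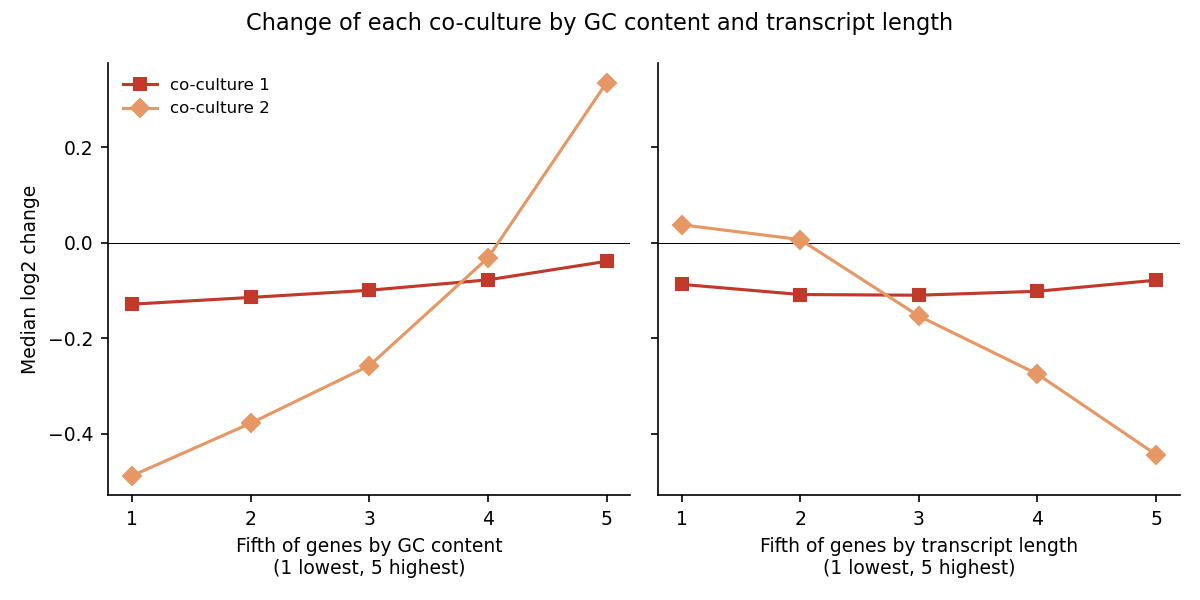
Median log2 change over the mono-culture mean in quintiles of the genes tested, ordered by GC content (left panel) or transcript length (right panel), for co-culture 1 and co-culture 2. The line of co-culture 2 runs from -0.488 to 0.335 with GC content and from 0.038 to -0.443 with length, and that of co-culture 1 is nearly flat.

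The genes named here had the largest gaps or were chosen after their values were seen. The 13 mitochondrially encoded genes had a median change of 0.09 in co-culture 1 and -2.27 in co-culture 2, and in 5 of them both co-cultures lay below all mono-cultures, near the share over all genes (1 of 13 on TMM sizes). MT-CYB, cytochrome b, read 9591, 9815 and 9181 CPM alone, 8869 CPM in co-culture 1 and 1016 CPM in co-culture 2. MT-CO3 read 19647, 19679 and 19239 CPM alone, 18652 CPM in co-culture 1 and 2222 CPM in co-culture 2. Nuclear-encoded genes of the respiratory chain did not share this, with medians of 0.01 and 0.37. Some single genes differed far more between both co-cultures than among the mono-cultures. ITM2B, a widely made membrane protein, read 90.2, 100.2 and 102 CPM alone, 99.5 CPM in co-culture 1 and 0.342 CPM in co-culture 2. NDUFA13, a subunit of complex I, read 14.1, 11.4 and 7.76 CPM alone, 11.9 CPM in co-culture 1 and 436 CPM in co-culture 2. The pseudogene RPL3P4 was at or under 0.605 CPM in the mono-cultures, at 0 in co-culture 1 and at 362 CPM in co-culture 2, and its parent gene can share its reads. HLA-C, a class I antigen-presenting molecule, and PSMB10, a subunit of the immunoproteasome, were also high in co-culture 2 only, at 327, 319 and 345 CPM alone against 329.98 and 864 CPM for HLA-C, and at 34.5, 38.5 and 36.8 CPM alone against 38.7 and 158 CPM for PSMB10.

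The mono-cultures with RANKL were read as a check of direction, with a depth like that of the co-cultures. In a fit of 7 libraries, 405 of 11885 genes were higher in the co-cultures than with RANKL (3.41%) and 583 lower (4.91%). This comparison uses the same 2 co-cultures as the main one, so both are given side by side. All 8 genes called against the plain mono-cultures were higher than with RANKL as well. The RANKL libraries read 39.6 and 45.3 CPM for CXCL8, 9.58 and 13.4 CPM for CXCL1, 2.76 and 2.71 CPM for CSF2, and 10.9 and 9.27 CPM for IL6. Co-culture was above these by 1.87, 1.65, 2.17 and 1.74 on the log2 scale, with edgeR adjusted p between 0.0023 and 0.013. The first 3 of them were themselves higher with RANKL than in the plain mono-cultures, by 1.22, 1.65 and 2.55. SAA1 and SAA2 went the other way, at 0.231 and 0.484 CPM and at 0.143 and 0.192 CPM with RANKL, which was lower than in the plain mono-cultures by edgeR (adjusted p = 0.0070 and 0.0075).

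Of the 30 genes next in order of p, 3 more were chosen after their values were seen, for levels with RANKL near those of the co-cultures. FGF23, the bone hormone that lowers blood phosphate, read 5.64, 5.13 and 4.25 CPM alone and 39.9 and 80.4 CPM with MG63 cells (log2 difference 3.73 ± 0.34, edgeR adjusted p = 0.056), but 32.1 and 33.4 CPM in the mono-cultures with RANKL. Against these the log2 difference was 0.89 (edgeR adjusted p = 0.13). RPL10, a ribosomal protein gene with many pseudogenes, read 71.5, 29.8 and 54.8 CPM alone, 3.45 and 3.45 CPM in co-culture and 2.34 and 3.99 CPM with RANKL. IFITM10 read 22.6, 24.7 and 24.8 CPM alone, 7.31 and 9.06 CPM in co-culture and 7.41 and 5.31 CPM with RANKL. For these genes the plain mono-cultures stood apart from both other groups, and between plain and RANKL mono-cultures 842 genes were higher with RANKL (7.08%) and 582 lower (4.90%). RANKL and the difference in depth cannot be told apart there. The main comparison has the same limit. Plain mono-cultures of every line held 23932472 counts or more, and all other libraries 15418211 or fewer. Against the plain mono-cultures, co-culture coincides with this split. Other differences along the split cannot be told apart there from those that go with MG63 cells. Cholesterol synthesis kept its side against RANKL, where 15 of 24 genes were lower in co-culture and 0 higher, with a median of -0.93. The RANKL libraries themselves were above the plain mono-cultures for 8 of these genes and below for 0, with a median of 0.47.

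The same co-culture was done with 22Rv1, C4-2 and C4-2B cells, each with 2 co-cultures and 3 mono-cultures, and a fit of all 20 libraries tested whether the change in DU145 cells differed. Within each of the other lines that fit called 1509 (11.2%) and 1234 (9.18%) of 13437 genes higher and lower in 22Rv1, 712 (5.30%) and 644 (4.79%) in C4-2, and 473 (3.52%) and 523 (3.89%) in C4-2B cells. The change in DU145 cells was more positive than in 22Rv1 cells for 560 genes (4.17%) and more negative for 839 (6.24%). Against C4-2 cells the counts were 578 (4.30%) and 716 (5.33%), and against C4-2B cells 515 (3.83%) and 570 (4.24%). Without co-culture 1 these 6 counts rose to between 2451 and 3537, and without co-culture 2 they lay between 358 and 1169. In this fit the spread is shared with lines whose replicates were closer together.

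**Figure D5:**
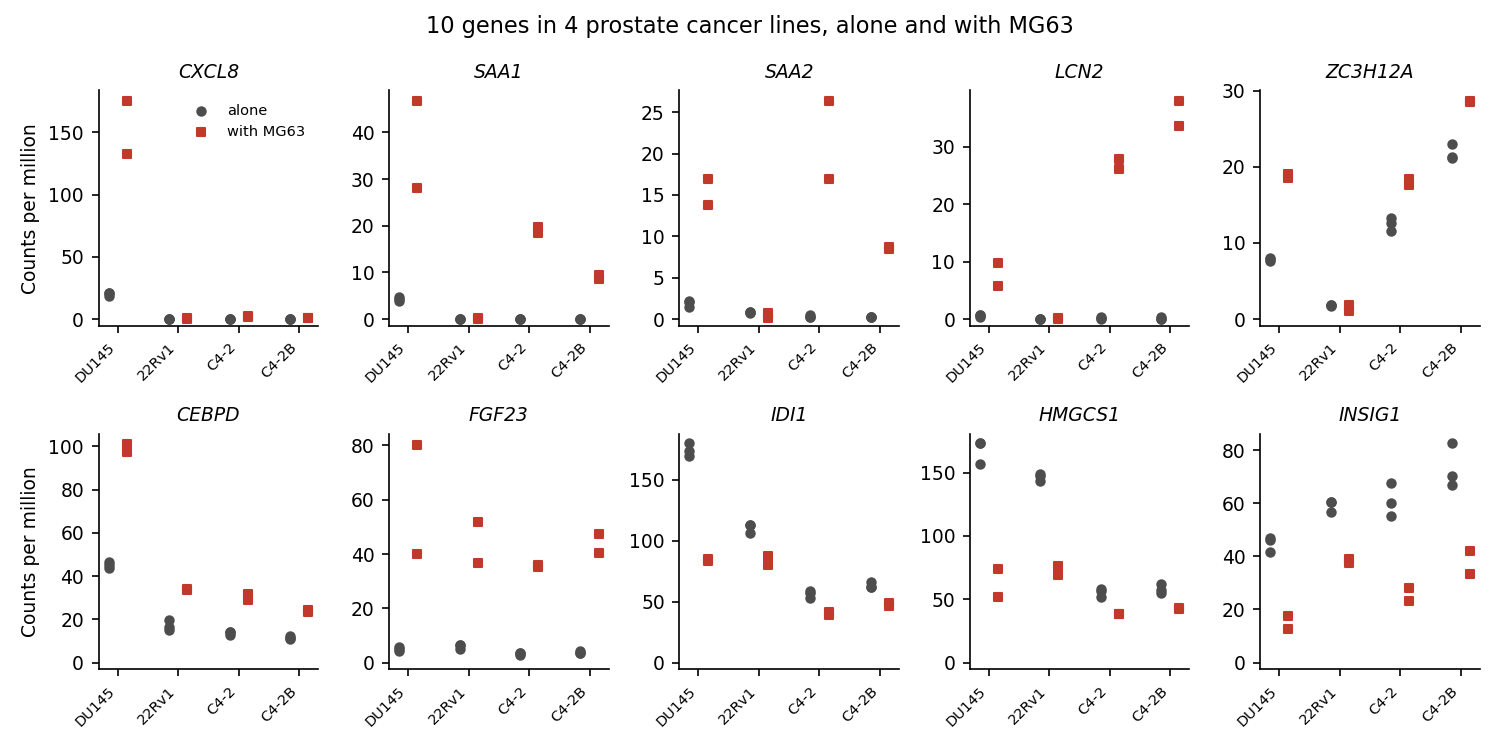
CPM on linear axes from 0 for 10 genes in DU145, 22Rv1, C4-2 and C4-2B cells, alone (circles, 3 libraries) and with MG63 cells (squares, 2 libraries). CXCL8 stood out in DU145 cells, and LCN2 was highest in C4-2B cells. CEBPD and FGF23 were higher with MG63 cells than in the plain mono-cultures in all 4 lines. Mono-cultures with RANKL are not drawn, and in DU145 cells their FGF23 levels were near those of the co-cultures.

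The cytokine genes had their highest levels in DU145 cells. CXCL8 averaged 19.98 CPM alone and 154 CPM with MG63 cells in DU145, against 0.0753 and 0.393 CPM in 22Rv1, 0.0744 and 2.07 CPM in C4-2 and 0.0191 and 0.627 CPM in C4-2B cells. The fitted log2 change in DU145 minus that in C4-2 cells was -1.78 ± 0.47 (edgeR adjusted p = 0.028), but CXCL8 lay under the limit of 3 counts in 2 of the 3 C4-2 mono-cultures, so that this size is uncertain. CSF2, CXCL1 and IL6 stayed at or under 0.529 CPM in each library of the other 3 lines, so that only their levels are given. For ZC3H12A the change in DU145 cells exceeded that in each other line. The differences were 1.4996 ± 0.20 against 22Rv1, 0.70 ± 0.14 against C4-2 and 0.88 ± 0.14 against C4-2B cells. Their edgeR adjusted p were 2.2e-04, 0.0069 and 0.0018. The change in DU145 cells was 1.33 in this fit, less than its difference from 22Rv1 cells, where ZC3H12A thus did not rise. CEBPD rose in all 4 lines, by 1.097 to 1.25 in the other 3, and the difference between lines missed the threshold in each comparison (edgeR adjusted p between 0.64 and 0.90).

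For SAA1, SAA2 and LCN2, C4-2 and C4-2B cells changed more than DU145 cells. SAA1 was at 0 in all C4-2 and C4-2B mono-cultures and averaged 19.0 and 8.99 CPM in their co-cultures, against 4.31 and 37.4 CPM in DU145 cells, so that DU145 cells had the higher level and the smaller relative change. SAA2 rose less in DU145 than in C4-2 cells by 3.09 on the log2 scale and than in C4-2B cells by 2.13. In 22Rv1 cells its fitted change was -0.79 and was not called, which differed from that in DU145 cells by 3.85. LCN2 averaged 0.609 and 7.79 CPM in DU145, 0.203 and 27.005 CPM in C4-2, and 0.112 and 35.7 CPM in C4-2B cells, and was at or under 0.226 CPM in 22Rv1 cells. Its change in DU145 was smaller by 3.44 ± 0.76 and 4.48 ± 0.79 than in C4-2 and C4-2B cells (edgeR adjusted p = 0.014 and 0.0058), with LCN2 at 0 in 2 of the 3 C4-2B mono-cultures. SERPINA3 averaged 0.165 CPM in DU145 co-cultures against 122 and 56.0 CPM in those of C4-2 and C4-2B cells.

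IDI1, HMGCS1 and INSIG1 fell with MG63 cells in all 4 lines in the fit of 20 libraries. IDI1 differed by -0.98 in DU145 cells there, and by -0.29, -0.37 and -0.34 in 22Rv1, C4-2 and C4-2B cells, and the change in DU145 was the more negative in each comparison (differences of -0.69, -0.60 and -0.63, edgeR adjusted p = 8.6e-05, 4.9e-04 and 6.3e-04). HMGCS1 differed more in DU145 than in C4-2 and C4-2B cells (edgeR adjusted p = 0.0018 and 0.0017), whereas the comparison with 22Rv1 cells missed the threshold (edgeR adjusted p = 0.072). INSIG1 passed against 22Rv1 cells only (edgeR adjusted p = 0.0059, 0.28 and 0.076). Over the 24 genes of the list, 7, 11 and 10 changed more negatively in DU145 than in 22Rv1, C4-2 and C4-2B cells, and 0, 1 and 0 more positively. NFKBIA was called higher in DU145 and C4-2 cells by the same fit, at averages of 340 to 718 CPM and 120 to 210 CPM, and its change in DU145 cells exceeded that in 22Rv1 and C4-2B cells (edgeR adjusted p = 1.1e-05 and 4.4e-04) but not that in C4-2 cells (edgeR adjusted p = 0.19).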

How the data were processed

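The 36 libraries were poly-A selected, strand-specific RNA-seq of PCa cell lines read on a DNBSEQ-G400. The deposited values are estimated counts of transcripts that the authors obtained with kallisto, and libraries were not normalized to each other. The submitters' notes name the build hg19. The table had 161149 lines for 159837 transcripts, and repeated lines were identical and used once. Counts were summed by gene symbol (27852 genes) and rounded, and 0 value columns were left unused. Transcripts without a symbol (0.526% to 0.577% of counts in the 5 libraries) stayed in the library total only.

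CPM is counts per 1e6 of the library total. Genes that reached 100 counts in any library of a fit were tested with edgeR 4.0.16 (TMM, quasi-likelihood) in R 4.3.3, as 2 against 3 libraries, with Benjamini-Hochberg adjustment over all genes, and a gene was called at an adjusted p under 0.05. Single-library changes used a pseudocount of 0.5 CPM. With 2 against 3 libraries a single gene cannot reach an exact two-sided permutation p under 0.1. GC content and length came from GENCODE, matched to 95.4% of transcripts. DESeq2 1.42.0, other filters and scalings, each library left out, a replicate block and the RANKL control were alternatives. The procedure was tested on simulated data.

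The members and gene lists were chosen with earlier results of these data known. Genes named are those past the threshold with the largest change (up to 12 each way, over 2-fold, without overlap, at 2 CPM or more), up to 4 per list (the called, or else the most abundant), 5 genes from earlier work and the 10 largest gaps each way between both co-cultures at 20 CPM or more. Others were chosen after their values were seen. Some genes that this rule names are not reported here.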

Additional observations from a re-analysis of the deposited data

Results flagged for a closer look

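Results are listed here where the change in DU145 cells differed from that in another line by the edgeR interaction test of 20 libraries, or where a signal appeared in libraries outside the comparison. The genes with a more positive and with a more negative change in DU145 cells numbered 560 and 839 against 22Rv1, 578 and 716 against C4-2, and 515 and 570 against C4-2B cells.

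SAA1 changed differently from C4-2 (edgeR adjusted p = 2.7e-04) and C4-2B cells (edgeR adjusted p = 0.0015), whose mono-cultures were at 0. SAA2 differed by 3.85, -3.09 and -2.13 on the log2 scale against 22Rv1, C4-2 and C4-2B cells. CXCL8 differed by -1.78 against C4-2 cells, whose mono-cultures were near the limit of 3 counts. ZC3H12A differed by 1.4996, 0.70 and 0.88 against 22Rv1, C4-2 and C4-2B cells. LCN2 differed by -3.44 against C4-2 and by -4.48 against C4-2B cells. PI3 differed against C4-2 cells (edgeR adjusted p = 0.029), and CCL20 against C4-2 (edgeR adjusted p = 1.9e-04) and C4-2B cells (edgeR adjusted p = 0.0085), again with the mono-cultures of the other line at or under 3 counts. IL32 differed by -3.28 against C4-2 cells.

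CSF2 averaged 3.54 CPM in the 2 DU145 libraries co-cultured with RAW264.7 cells and RANKL, beside 2.76 and 2.71 CPM in the mono-cultures with RANKL and at most 0.758 CPM in the plain mono-cultures.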

How the results depend on the processing

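The counts of genes called varied widely between alternatives. In place of 8 higher and 0 lower, no filter beyond 1 count gave 15 and 1, DESeq2 gave 476 and 294, all 20 libraries fitted together gave 2040 and 2052, the RANKL mono-cultures as control gave 405 and 583, and a 2-fold change with an unadjusted p under 0.05 gave 285 and 105. Each library left out in turn gave 0 to 3536 higher and 0 to 3392 lower. Library totals, removal of mitochondrial genes, a CPM filter and thinning of the mono-cultures left these counts within 1.5 times, although ZC3H12A and CEBPD lost their call with library totals and IL6 and ZC3H12A with thinning. Between both co-cultures and all mono-cultures, CPM over TMM effective sizes moved the genes above to 2752 and those below to 2536, the RANKL control moved those above to 2997, and leaving out libraries gave 1725 to 3968 above and 4550 to 6645 below. Over 2-fold lower in co-culture 2 were 520 genes on TMM sizes. List members called, 6 higher and 0 lower, became 39 and 60 against RANKL, and 0 to 222 and 0 to 150 with a library left out. No called gene changed sign. Some list medians did, such as the mitochondrially encoded genes from -0.50 to 0.18 without co-culture 2 and, against RANKL, the ATF4 response from 0.18 to -0.31, glycolysis from 0.25 to -0.06 and interferon-stimulated genes from -0.14 to 0.08. The cause was not tested.

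Against RANKL, LCN2 differed by 2.16 and CCL20 by 3.60 on the log2 scale, both past the threshold, and the log2 ratio of PI3 was 6.12. With a library left out LCN2 ran from 3.60 to 4.07 (without co-culture 1 it was under the count minimum and has no value), CCL20 from 1.91 to 2.37, IL32 from 0.30 to 1.83 and PI3 from 4.38 to 5.13. On library totals the excess of more negative genes turned over against C4-2 cells, with 738 more positive and 617 more negative. With no filter beyond 1 count it turned over against each of the other lines. Differences from 22Rv1, C4-2 and C4-2B cells were then 458, 393 and 253 more negative genes, and 584, 688 and 550 more positive. With a library left out they ran from 384 to 2451 and from 595 to 3340 against 22Rv1, from 333 to 2726 and from 502 to 3477 against C4-2, and from 287 to 2768 and from 330 to 3537 against C4-2B cells.

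The replicate block gave 14 higher and 3 lower in 5 libraries, and 1869 and 1835 in 20. With the block in 5 libraries IL6, ZC3H12A and CEBPD were not called (log2 fold changes of 1.50, 1.40 and 1.29, edgeR adjusted p = 0.17, 0.25 and 0.27). Deviations of equal-numbered co-cultures and mono-cultures correlated at -0.0401 and -0.0310. With 2 co-cultures these values cannot settle whether the numbers pair the samples, and the labels give the numbers no further meaning. Depth limits genes near 0.288 CPM, the detection limit of co-culture 2.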

Other observations

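Further gene lists had 0 calls by the edgeR fit of 5 libraries. Over all genes, 13.1% were higher and 8.49% lower at an unadjusted p under 0.05, and DESeq2 called 4.01% and 2.48%, and the smaller counts below are near these shares. Of 72 cytosolic ribosomal protein genes, 27 were higher and 1 lower at an unadjusted p under 0.05, DESeq2 called 20 higher and 1 lower, and the medians were 0.21 and 0.26 in co-cultures 1 and 2. Their fitted median was 0.35 against the plain and 0.08 against the RANKL mono-cultures, and the RANKL mono-cultures stood 0.30 above the plain ones. Among 30 genes of glycolysis and hypoxia, 9 were higher and 0 lower at an unadjusted p under 0.05, and DESeq2 called 7 higher and 0 lower. ALDOA, a glycolytic aldolase, read 2467, 2459 and 2498 CPM alone and 3089 and 3772 CPM in co-culture. Of 19 immediate early genes 7 were higher and 0 lower at that level (DESeq2 3 and 0), and of 17 genes of class I antigen presentation 4 were higher and 0 lower (DESeq2 1 and 0). The unfolded protein response had 1 higher and 4 lower of 19 (DESeq2 1 and 0), and the ATF4 response 3 higher and 2 lower of 19 (DESeq2 2 and 2). ANGPTL4, a secreted lipase inhibitor, read 21.1, 18.8 and 22.7 CPM alone and 45.7 and 90.6 CPM in co-culture (edgeR adjusted p = 0.14).

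The DU145 libraries co-cultured with RAW264.7 cells and RANKL entered no test of the report. For CXCL8 they read 45.9 and 43.4 CPM, for CXCL1 12.1 and 10.8 CPM and for IL6 12.9 and 9.18 CPM, against 39.6 and 45.3, 9.58 and 13.4, and 10.9 and 9.27 CPM in the mono-cultures with RANKL. SAA1 read 0.240 and 0.407 CPM there, LCN2 2.35 and 2.38 CPM, and FGF23 41.4 and 31.1 CPM.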
